A study of Mus musculus with 8 samples.

Results

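Described here are the 500 strongest clusters of H3K27ac intervals with no promoter noted, in mouse neuronal stem cells with wild-type H3.3 (WT). They were followed into cells that carry H3.3K27M (K27M). The note leaves some gene starts in, since at least 119 of the 500 clusters hold a RefSeq start. Starts on chromosome 18, which has 22 of the clusters, were not looked up. WT H3K27ac intervals with no promoter noted in the deposited table, 20747 in all, were joined wherever the gap was at most 12.5 kb, which gave 8735 clusters. Each cluster was ranked by its summed density, the mean tag density of each interval times its number of bins of about 32 nt, added up over the cluster. The 500 clusters with the largest sums are 5.72% of all clusters and held 38.0% of the summed density, in 3999 intervals. The members were thus chosen by the WT H3K27ac values, and every comparison of K27M with WT H3K27ac inside them is a description without a test.

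Both groups were p16Ink4a - /p14Arf - mouse neuronal stem cells grown with human EGF and human bFGF. K27M cells were stably transduced with H3.3K27M, and WT cells carried a stably transduced WT H3.3 in the same way, so both have an added histone gene beside their own. The sources used here give neither the strain, nor the transgene's promoter, nor whether each line is 1 clone. Each genotype gave 1 library per mark, for H3K27ac, H3K4me3 and H3K27me3, from 30 ug of chromatin and 4 ul of antibody after 15 min in 1% formaldehyde. No value therefore has a replicate error, and the intervals in brackets cover counting or the spread between clusters only.

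Super-enhancers are dense groups of enhancers close together on a chromosome, loaded with H3K27ac, coactivators and the master transcription factors of a cell type, and often found at the genes that define that cell. H3K27ac is placed on nucleosomes of active enhancers and promoters, and it occupies the same lysine that Polycomb repressive complex 2 methylates. In H3.3K27M that lysine is a methionine, which can be neither acetylated nor methylated, and the mutant histone is known for inhibiting Polycomb repressive complex 2. In neural stem cells, transcription factors such as Sox2, Nfia and Olig2 are known for their part in self-renewal and glial fate.

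The members are single loci of several kilobases and most lie inside gene bodies, so sequence is shown for the gene starts they hold. RefSeq (GRCm38.p6) starts, as windows of 250 bases before to 50 bases after the start, fell inside a cluster 212 times, in 149 genes and 119 clusters. WT H3K27ac overlapped 163 of these windows, and K27M H3K27ac overlapped 90 of those 163 (55.2%), against a background of 66.4% of all WT-acetylated windows. The pairs shown are alternative starts of the same gene in the same cluster, 1 with H3K27ac in both genotypes and 1 with H3K27ac in WT alone, and were chosen after their values were seen. CpG dinucleotides are in capitals.
Septin9, both genotypes, chr11:117332063-117332362, + strand: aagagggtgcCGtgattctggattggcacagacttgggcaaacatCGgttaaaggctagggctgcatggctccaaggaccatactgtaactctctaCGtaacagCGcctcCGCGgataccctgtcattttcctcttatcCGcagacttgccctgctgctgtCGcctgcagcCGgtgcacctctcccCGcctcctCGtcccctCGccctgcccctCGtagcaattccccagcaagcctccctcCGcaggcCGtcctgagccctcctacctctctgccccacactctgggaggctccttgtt
Septin9, WT alone, chr11:117265996-117266295, + strand: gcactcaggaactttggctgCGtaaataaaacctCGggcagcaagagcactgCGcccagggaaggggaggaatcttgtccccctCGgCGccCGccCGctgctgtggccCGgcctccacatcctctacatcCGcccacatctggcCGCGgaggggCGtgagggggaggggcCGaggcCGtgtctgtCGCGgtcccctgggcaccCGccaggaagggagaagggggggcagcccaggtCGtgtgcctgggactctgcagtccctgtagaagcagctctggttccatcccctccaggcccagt
Hdac7, both genotypes, chr15:97814814-97815113, - strand: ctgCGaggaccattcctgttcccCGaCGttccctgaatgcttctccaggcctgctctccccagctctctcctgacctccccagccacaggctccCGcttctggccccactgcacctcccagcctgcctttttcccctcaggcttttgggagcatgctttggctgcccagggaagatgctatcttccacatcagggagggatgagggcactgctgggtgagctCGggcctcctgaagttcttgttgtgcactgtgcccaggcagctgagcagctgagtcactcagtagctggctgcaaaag
Hdac7, WT alone, chr15:97831446-97831745, - strand: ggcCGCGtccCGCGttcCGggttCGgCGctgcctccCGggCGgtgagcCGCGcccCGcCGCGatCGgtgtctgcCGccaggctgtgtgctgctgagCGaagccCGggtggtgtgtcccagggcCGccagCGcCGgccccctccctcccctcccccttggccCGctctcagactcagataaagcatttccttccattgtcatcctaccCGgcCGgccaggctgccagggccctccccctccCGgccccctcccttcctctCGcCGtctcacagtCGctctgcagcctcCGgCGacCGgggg
Abr, both genotypes, chr11:76494446-76494745, - strand: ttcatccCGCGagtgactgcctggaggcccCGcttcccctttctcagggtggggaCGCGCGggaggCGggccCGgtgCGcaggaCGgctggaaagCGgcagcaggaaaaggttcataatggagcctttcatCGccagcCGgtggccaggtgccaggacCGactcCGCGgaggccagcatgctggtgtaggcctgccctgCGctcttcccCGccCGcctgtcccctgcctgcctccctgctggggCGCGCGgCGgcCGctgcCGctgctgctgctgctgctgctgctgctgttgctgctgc
Abr, WT alone, chr11:76509370-76509669, - strand: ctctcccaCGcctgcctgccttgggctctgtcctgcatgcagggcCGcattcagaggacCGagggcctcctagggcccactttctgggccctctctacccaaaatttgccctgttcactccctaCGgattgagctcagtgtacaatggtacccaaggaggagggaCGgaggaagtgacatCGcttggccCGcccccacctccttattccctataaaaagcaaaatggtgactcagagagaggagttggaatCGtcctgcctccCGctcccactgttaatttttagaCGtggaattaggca

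These 3 genes lay in the clusters of rank 2, 14 and 61. At the Septin9 start acetylated in both, the H3K27ac interval had a mean density of 40.0 tags per bin in K27M and 39.2 in WT. At the other Septin9 start the WT interval reached 46.9 and K27M had none, while the H3K4me3 intervals there stood at 114 in K27M and 85.5 in WT. Septin9 encodes a septin, a GTPase that forms filaments of the cytoskeleton, and its start with H3K27ac in WT alone was thus still covered by H3K4me3 in both.

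The Hdac7 start acetylated in both had 42.6 in K27M and 76.9 in WT with 5 CpG, and the Hdac7 start with 31 CpG had 23.7 in WT alone. Hdac7 encodes a class IIa histone deacetylase. At Abr, the start in both had 43.6 in K27M and 54.9 in WT with 25 CpG. The other Abr start had 21.0 in WT alone with 10 CpG. The WT densities at these lost Hdac7 and Abr starts lay under the 5th percentile of the K27M list, 25.5.

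Over the 163 WT-acetylated windows in the clusters, K27M H3K27ac was found at 38 of 55 with 10 or more CpG (69.1%) and at 52 of 108 with fewer (48.1%). The same division was not made outside the clusters, so it is not read as a trait of the clusters. Several windows are starts of the same gene and are not independent. The median was 8 CpG in windows with H3K27ac in both, 5 in windows with WT alone and 7 over all 32851 windows of the table. Letters were then searched on both strands of all 212 windows. The AP-1 motif TGANTCA was in 13.7% of them and in 7.81% of all windows of the same length, the SOX motif ACAAAG in 19.3% and 18.7%, the E-box CANNTG in 72.2% and 72.3%, and the NFI part site TTGGC in 46.2% and 46.7%. The TGANTCA share was 12.2% in windows with H3K27ac in both and 12.3% in those with WT alone. It was 18.4% in the 49 windows with no WT H3K27ac. None of these motifs contains another, and a match is a description of the sequence only. Gene starts on chromosome 18 were not analysed here.

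Nearly all clusters still carried some H3K27ac in K27M cells, and most carried much less of it. A K27M interval lay in 490 of the 500 clusters (98%, exact binomial 95% interval 96.4 to 99.0%), against a background of 34.7% over all 8735 joined clusters. An overlap of 1 bp counted, and the members are longer, with a median span of 16351 bp against 1358 bp over all clusters. The 2 shares are therefore not compared further. With at least 10% of the span covered, the share of members was 69.0%. K27M H3K27ac covered 15.7% of the member spans and 10.8% of the spans of all clusters. The length acetylated in K27M was 1.57 Mb, against 4.67 Mb in WT, or 33.6%. The summed density was 2130383 in K27M and 6392957 in WT, or 33.3%. The loss of called length was thus about as large as the loss of summed density.

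Per cluster, the K27M sum had a median of 29.7% of the WT sum (95% interval of the median over clusters 27.7 to 33.5%), with quartiles of 16.2% and 47.8% and a range of 0% to 105%. The K27M length had a median of 33.6% of the WT length (30.6 to 37.1%). In 396 of the 500 clusters (79.2%) the K27M sum was at most 50% of the WT sum, where the background was 89.2%. The share was at most 25% in 208 clusters (background 77.6%) and at least 75% in 12 (background 4.45%). Because the WT values chose the clusters, nothing is read from these backgrounds.

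The count at 50% or less depends on the density scale. It was 97.6% when the K27M densities were scaled so that the 5th percentiles of both lists were equal, and 38.2% when they were scaled so that the sums over all called intervals were equal. The sum over all called H3K27ac intervals in K27M was 46.1% of that in WT, and 141 members (28.2%, background 12.5%) had a share above this, so these would lie above WT at equal sums. The deposited scale is the authors' own and the total depth is unknown, so a genome-wide change and a difference in scale cannot be told apart. Over the whole lists, K27M had 20040 H3K27ac intervals over 12.6 Mb and WT had 39018 over 31.7 Mb, a length ratio of 39.9%, and the 5th percentile of density was 25.5 in K27M and 17.0 in WT.

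**Figure D1:**
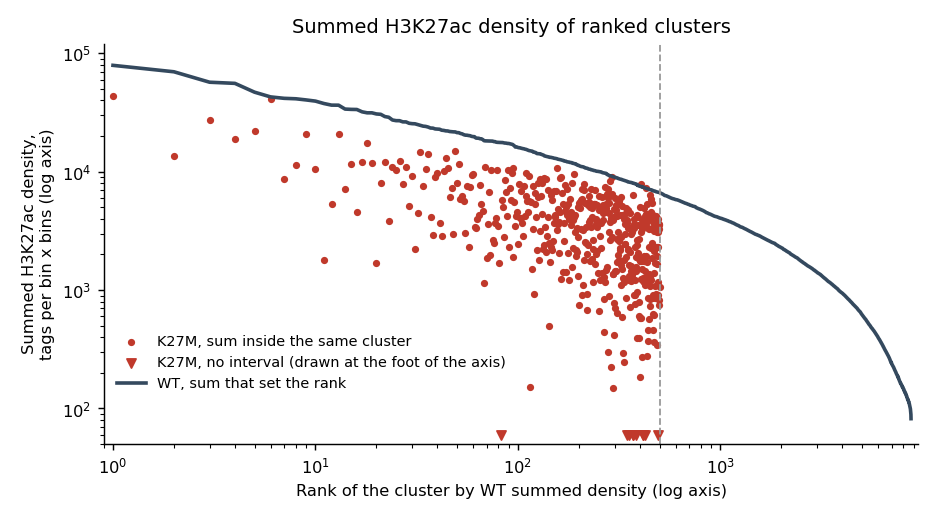
Summed H3K27ac density (log axis, tags per bin times bins) against the rank of the cluster (log axis). Red points are K27M sums in the 500 clusters, triangles at the foot of the axis the 10 clusters without a K27M interval, and the dark line the WT sums that set the rank, with a dashed line at rank 500. Of the points, 1 lies above the WT line, at rank 403.

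On the deposited scale, what remained was lower in density as well as shorter in most clusters. The mean density over called bins had a median of 39.0 tags per bin in K27M (490 clusters) and 43.1 in WT (500 clusters), and it was higher in K27M in 131 of 490 clusters (26.7%, background 52.4%). The highest density within the cluster had a median of 64 tags in K27M and 114 in WT. It was higher in K27M in 4 clusters (0.8%, background 5.99%). These lay at Gatad2a, Sulf2 and Cspg4 and near Tubb3, and are named here after their values were seen. K27M H3K27ac had a median of 4 intervals per cluster, against 7 in WT. In 102 clusters (20.4%, background 4.34%) K27M had more intervals than WT over the same span.

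The share changed little with rank inside the 500. The median sum in K27M was 29.0% of WT in ranks 1 to 100, 32.9% in the next 150 and 27.9% in the last 250. It was 25% in the 500 clusters that follow, where 89.6% of clusters had a K27M interval. Over all 8235 clusters outside the 500 the median was 0%, since 30.9% of them had a K27M interval at all. Across the 500 clusters the share had a Spearman correlation of 0.07 with the WT sum, 0.51 with the WT mean density and -0.37 with the number of WT intervals, all from the same 2 libraries. Clusters built of few dense intervals thus had larger shares than clusters of many thin intervals, although the WT sum enters each share. WT density and interval number also enter the sum that chose the members. The 5th percentile of density was 25.5 in the K27M list and 17.0 in the WT list, and its part in these correlations was not tested.

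**Figure D2:**
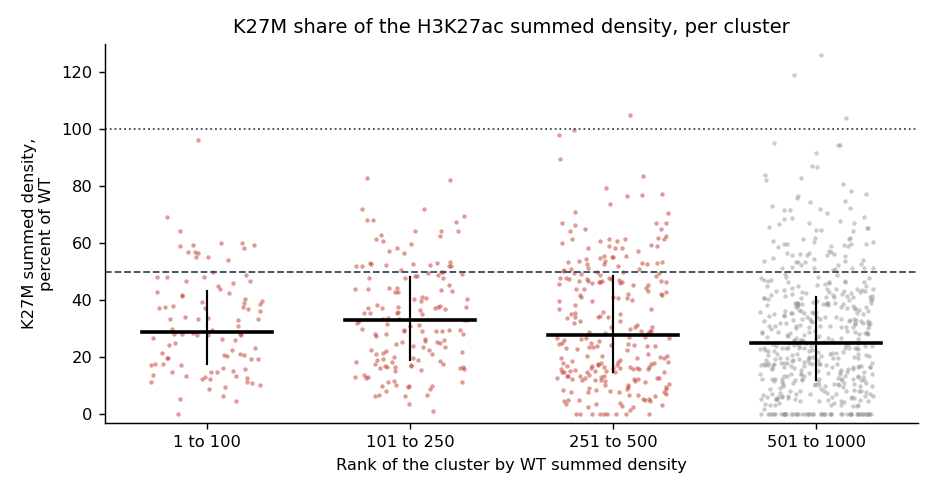
K27M summed H3K27ac density as a percent of WT (y axis) for each cluster, by rank class (x axis). Horizontal bars are medians and vertical lines quartile ranges; the dashed line marks 50% and the dotted line 100%. The medians are 29.0%, 32.9%, 27.9% and 25% from left to right.

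The rank at which membership ends is no natural gap. A tangent to the ranked curve, the usual way of setting a super-enhancer limit, fell after 527 clusters at a sum of 6315. The last members were the clusters at Tldc2 and Samhd1 (K27M sum 831, WT 6683), at 5031439G07Rik (K27M 3521, WT 6680) and at Frs2 (K27M 1055, WT 6667). The first clusters outside were chr2:123383355-123387999, with no gene and Sqor nearest (K27M 1260, WT 6665), Srgap2 (K27M 1918, WT 6647) and Sh3pxd2b (K27M 264, WT 6626). The members had a median span of 16351 bp (2949 to 114835 bp) and a median of 7 intervals, and 16 of them were a lone interval.

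The strongest cluster of the WT cells lay in Myh9, the heavy chain of non-muscle myosin IIA, at chr15:77763889-77836743. Its H3K27ac covered 24385 bp in K27M and 40013 bp in WT, with sums of 43645 in K27M and 79206 in WT (55.1%). Septin9 followed with a sum of 13618 in K27M and 69878 in WT (19.5%). The cluster of rank 3, chr15:85652352-85689728, held no gene and lay 14045 bp from Lncppara, with 27422 in K27M and 57040 in WT (48.1%). The order of the strongest clusters was thus not the same in both lists, with the largest K27M sums at Myh9 and near Tubb3.

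Msi2, an RNA-binding protein of neural stem cells, held the cluster of rank 4, with a sum of 18743 in K27M and 55786 in WT (33.6%). Myo10, a myosin of filopodia, had 22064 in K27M and 47003 in WT (46.9%). The cluster of rank 6 stood apart from all others. It spans chr8:123426183-123434155, 4168 bp from Tubb3, a neuronal tubulin, and had 41290 in K27M and 42866 in WT (96.3%), with a mean density of 193 in K27M and 185 in WT, the highest of the 500 in both. It also carried H3K4me3 over 7395 bp in K27M and 7566 bp in WT of its 7972 bp.

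Among ranks 7 to 12, Lrrc74a had a sum of 8673 in K27M and 41700 in WT (20.8%). Nfia, a transcription factor that starts gliogenesis, had 11440 in K27M and 41329 in WT (27.7%). The cluster over Dgkg, a diacylglycerol kinase, with 9230117E06Rik and Mir8095, had 20700 in K27M and 41433 in WT (50%). These 3 clusters, of similar WT strength, differed in what K27M kept by more than 2-fold. The potassium channel gene Kcnd3 had 10633 in K27M and 39490 in WT (26.9%). The cluster of Gm3764 and Rhbg, an ammonium transporter, had 1795 in K27M and 37695 in WT (4.76%), the lowest share among the first 20. Cuedc1 had 5381 in K27M and 36530 in WT (14.7%).

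Among ranks 13 to 16, Elfn2, a postsynaptic adhesion protein, had 20830 in K27M and 36492 in WT (57.1%). The Hdac7 cluster, which also holds the heme transporter gene Slc48a1, had 7119 in K27M and 33830 in WT (21.0%). Cxxc5, a CXXC zinc finger protein, had 11513 in K27M and 33632 in WT (34.2%). Ahdc1 kept the least of these 4, with 4568 in K27M and 36538 in WT (12.5%).

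Among ranks 17 to 20, the cluster over the gene models Gm37013, Gm38666 and Gm38667, which with 25 genes in all covers the gamma protocadherins, cell surface adhesion proteins of neurons, had 12037 in K27M and 32058 in WT (37.5%). The cluster chr7:145092496-145122686, with no gene and 58947 bp from Tpcn2, had 17336 in K27M and 31452 in WT (55.1%). Adgrg1, an adhesion receptor of neural progenitors, had 11930 in K27M and 31449 in WT (37.9%). Vac14, a scaffold for phosphoinositide synthesis, had 1679 in K27M and 30764 in WT (5.46%). Of the first 20 clusters, all but the one near Tubb3 had a K27M sum of at most 57.1% of WT.

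**Figure D3:**
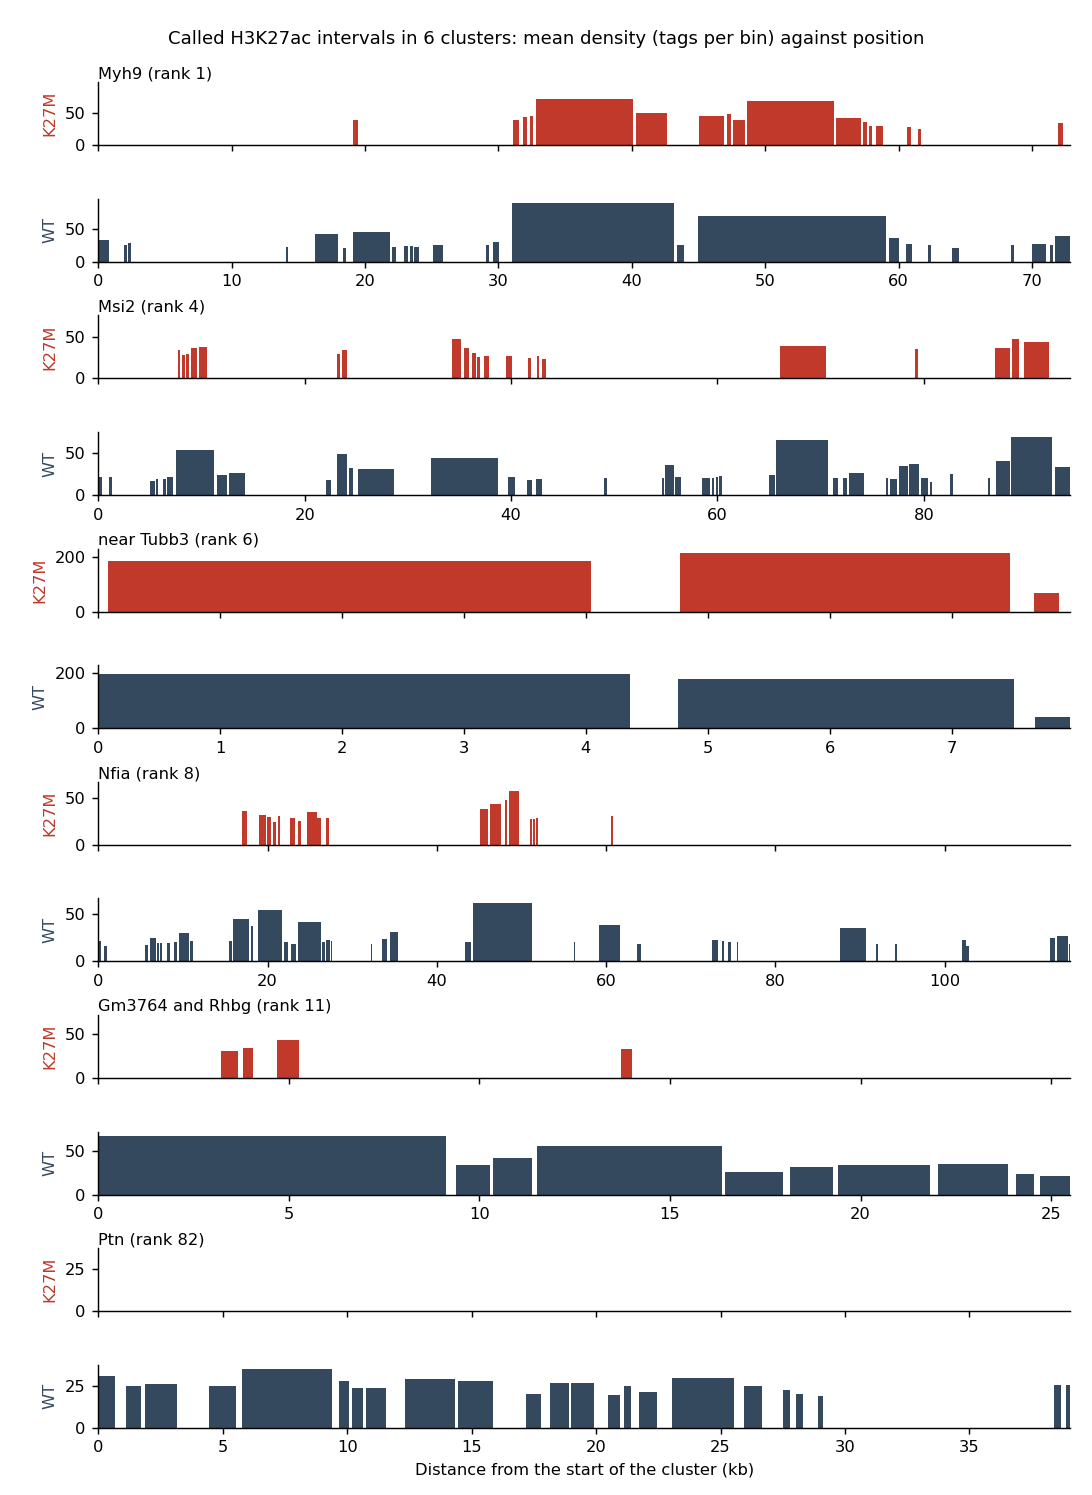
Called H3K27ac intervals in 6 clusters, with K27M (red) above WT (dark), as mean density in tags per bin (y axis) against the distance from the start of the cluster in kb (x axis). K27M intervals sit over the denser WT intervals at Myh9, Msi2 and Nfia, over nearly all of the cluster near Tubb3, over 1560 of 24082 bp at Gm3764 and Rhbg, and nowhere at Ptn.

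Most of the longest clusters had low shares. Of the 10 longest, the Nfia cluster spanned 114835 bp, Septin9 107625 bp, Ahdc1 99594 bp, Msi2 94181 bp, Kcnd3 81078 bp, Cuedc1 74231 bp and Myh9 72854 bp, with the shares given above. Prex1, an exchange factor for Rac, spanned 88423 bp with a sum of 2964 in K27M and 21720 in WT (13.6%). Abr spanned 87057 bp with 3408 in K27M and 19774 in WT (17.2%). Nrxn2, a presynaptic neurexin, spanned 75004 bp with 3048 in K27M and 20370 in WT (15.0%). Of these 10 clusters, Myh9 was the only one above 50%.

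Genes of the neural stem and glial programme were among those in the clusters. Of 25578 RefSeq genes used, 420 (1.64%) overlapped a cluster, and 553 (2.16%) did so with a flank of 10000 bp. Of the 30 genes listed as neural stem and progenitor genes 5 overlapped a cluster and 7 with the flank, and of 20 gliogenic transcription factors 5 did and 7 with the flank. No test of a difference was made, and genes that overlap a cluster are long. Protein-coding genes in a cluster had a median length of 95 kb, against 17.7 kb over all, and 5.21% of protein-coding genes of 50 kb or more overlapped a cluster, against 0.737% of shorter ones.

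Sox2, the transcription factor that maintains neural stem cells, lies within 10000 bp of the cluster of rank 49 in Sox2ot. That cluster had a sum of 15032 in K27M and 21691 in WT (69.3%) and a length of 9767 bp in K27M and 11607 bp in WT. Nes, the intermediate filament nestin, shares the cluster of rank 99 with Bcan, the proteoglycan brevican, with 4583 in K27M and 16163 in WT (28.4%). Slc1a3, the glial glutamate transporter GLAST, had 7834 in K27M and 26382 in WT (29.7%). The cluster beside Sox2 thus kept a larger share than those at Nes and Slc1a3.

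Msi2 held a further cluster, of rank 385, with 397 in K27M and 7836 in WT (5.07%). Tnc, the matrix protein tenascin C, had 3364 in K27M and 7167 in WT (46.9%). Zbtb20, a zinc finger factor of astrocyte formation, had 5379 in K27M and 8712 in WT (61.7%). Olig2, a helix-loop-helix factor of oligodendrocyte progenitors, lies within 10000 bp of the cluster of rank 400, with 1769 in K27M and 7542 in WT (23.5%). All of these sums were lower in K27M.

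Among the gliogenic factors, Nfia held a further cluster, of rank 44, with 13078 in K27M and 22137 in WT (59.1%), a larger share than the stronger Nfia cluster. Nfix had 1857 in K27M and 7658 in WT (24.2%). Etv5, an ETS factor downstream of growth factor signalling, had 1297 in K27M and 7240 in WT (17.9%). The pair of clusters in Tcf4, an E-protein, had 2158 in K27M and 10093 in WT (21.4%), and 5275 in K27M and 10080 in WT (52.3%). Pou3f3, a POU factor of cortical progenitors, lies within 10000 bp of the clusters of rank 205 and of a lower-ranked one over Pantr1, with shares of 52.0% and 61.7%. Clusters of the same gene therefore differed in share by 2-fold or more at Nfia, Msi2 and Tcf4, and not at Pou3f3.

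Of 28 Notch pathway and Id genes 3 overlapped a cluster. The receptor gene Notch1 had 1412 in K27M and 12486 in WT (11.3%), and Notch2 had 2064 in K27M and 7656 in WT (27%). Maml2, a coactivator of Notch receptors, was 1 of 4 genes with 3 clusters, beside Ano6, Poc1b and Tead1. Its clusters had 6232 in K27M and 20889 in WT (29.8%), 1141 in K27M and 18284 in WT (6.24%), and 278 in K27M and 7172 in WT (3.88%). These 5 clusters, 3 of them in Maml2, were below 30% of WT, as were 254 of the 500 clusters (50.8%).

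Of 29 growth factor receptors and their feedback genes 2 overlapped a cluster. Fgfr1, a receptor for the bFGF in the medium, had 1772 in K27M and 7327 in WT (24.2%). Lrig1, which lowers EGF receptor levels, had 496 in K27M and 13331 in WT (3.72%). Of 30 adhesion and matrix genes 5 overlapped a cluster, namely Bcan, Tnc, Cdh2 (N-cadherin, 13.8%), Cspg4 (the proteoglycan NG2, 67.0%) and Cdh13 (46.0%).

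The remaining lists had 0 or 1 member in a cluster. Against the 1.64% of all genes, lists of 12 to 30 genes are too short for such counts to set them apart. Wnt7b (12.6%) was the member found among 28 Wnt genes, Slc7a5 (an amino acid transporter, 51.0%) among 30 glycolysis and glutamine genes, and Ywhaz (a 14-3-3 protein) among 27 housekeeping genes. Slc1a3 among 18 astrocyte genes, and Cspg4 among 18 oligodendrocyte and 14 endothelial and mural genes, were counted above. No member overlapped a cluster among the lists of 19 AP-1 and immediate early, 24 TGF-beta and BMP, 23 mature neuron, 12 microglia, 19 fibroblast, 30 cell cycle and 30 chromatin regulator genes, nor among 24 muscle, liver and pluripotency genes. The flank of 10000 bp added Tubb3 among the mature neuron genes, Wnt7a among the Wnt genes, Aldh1l1 among the astrocyte genes and Olig2 among the oligodendrocyte genes. Markers of cell types were also looked up. The share over all genes was not computed, so these counts are a description and no check of the label. H3K27ac lay within 1000 bp of 13 of 16 neural stem cell markers in K27M (sums 0 to 14317) and of 15 in WT (0 to 40725). Hes5, Gfap and Prom1 had none in K27M and Prom1 none in WT. It lay at 1 of 7 neuron markers in K27M and 3 in WT, at 2 of 5 oligodendrocyte markers in both, at 1 of 4 endothelial markers in K27M and 2 in WT, at 0 of 5 fibroblast markers in K27M and 1 in WT, at 0 of 5 microglia markers in K27M and 2 in WT, and at 0 of 5 muscle and liver markers in both.

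The 10 clusters without any K27M H3K27ac interval all had a WT mean density below the member median of 43.1 tags per bin, at 24.4 to 40.6. The largest lay in Ptn, the secreted growth factor pleiotrophin, at rank 82, where WT had 23 intervals over 20574 bp, a sum of 17667 and a mean density of 27.5. H3K4me3 was nevertheless called in the Ptn cluster in both, over 1745 bp in K27M and 2341 bp in WT. The others lay at Fam178b (WT sum 8296), Elmo2 (a partner of Dock exchange factors, 8162), Trp53cor1 (the long noncoding RNA lincRNA-p21, 8036) and Daam1 (a formin, 8016). Then came chr8:125384998-125392468, with no gene and Sipa1l2 nearest (7868), Zmiz1 (a transcriptional coactivator, 7431), Bahcc1 (7367), Coro2b (a coronin, 7322) and Ntn4 (a netrin, 6734). The background of clusters without K27M H3K27ac was 65.3%.

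The cluster with more H3K27ac in K27M than in WT was that of Rapgef1, an exchange factor for Rap1, at rank 403, with a sum of 7895 in K27M and 7515 in WT (105%, and background 1.98% above WT). Diaph1, a formin, had 7218 in K27M and 7225 in WT at rank 430 (99.9%). The cluster chr18:62044707-62051450, with no gene and Sh3tc2 nearest, had 8952 in K27M and 9138 in WT (98%). With the cluster near Tubb3, these were the members with a share above 90%.

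Ywhaz had 8287 in K27M and 9247 in WT (89.6%). Sorcs2, a receptor of the sortilin family, had 5900 in K27M and 7037 in WT (83.8%) at its weaker cluster, and Mitf, a helix-loop-helix factor of pigment cells, had 10694 in K27M and 12894 in WT (82.9%). The cluster chr13:25729268-25753749, with no gene and Gm11351 nearest, had 82.2%, Erich3 had 79.5% and Dusp10, a phosphatase of MAP kinases, had 77.2%. The clusters with the 10 highest shares held 1 to 9 WT intervals, below or near the median of the members.

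Inside the clusters the loss was uneven from interval to interval. A K27M H3K27ac interval met 1245 of the 3999 WT intervals (31.1%, 95% interval 29.7 to 32.6%). Elsewhere it met 3228 of 16748 WT intervals without a noted promoter (19.3%, 18.7 to 19.9%), and the share over both was 21.6%. An overlap of 1 bp counted here, and the share in the clusters was 15.0% when 50% of the interval had to be covered. Of the K27M H3K27ac length in the spans, 97.1% lay on a WT interval. Over the whole lists, 11.7 Mb of the 12.6 Mb of K27M H3K27ac lay on a WT interval, so this was not particular to the clusters. The spans were drawn from WT intervals, and the WT list reaches lower densities, so nothing more is read from it.

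In the 458 clusters with 3 or more intervals, the largest interval was met in 429 (93.7%), the second largest in 279 (60.9%), the third largest in 161 (35.2%) and the smallest in 47 (10.3%). Intervals at either end of a cluster were met in 32.1% of cases and interior ones in 29.9%, so position along the cluster made little difference. The median cluster kept 33.3% of its intervals, and 36 clusters kept all of them.

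The share met followed the WT density both in the clusters and elsewhere. In the top decile of WT density, 39.3 to 199 tags per bin in the clusters, 88.8% of cluster intervals (86.4 to 90.8%) and 79.3% of other intervals (77.0 to 81.6%) were met. In the next decile 41.9% of cluster intervals (37.2 to 46.8%) and 46.7% of others (44.3 to 49.2%) were met, and in the lowest decile 6.56% and 4.27%. The cluster intervals of the top decile were also longer, with a median of 2836 bp against 1556 bp. By length, 98.2% of cluster intervals over 4000 bp were met and 94.7% of the 19 others of that length. Of intervals over 500 and up to 1000 bp, 19.0% of cluster intervals and 22.8% of others were met.

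The lists were called separately, and the densities of the lower 6 deciles lie at or under 25.4, while the 5th percentile of the K27M list was 25.5. With both lists limited to densities of at least 25.5, K27M met 50.6% of the WT intervals in the clusters. The part of the call threshold in these shares was not tested beyond this.

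**Figure D4:**
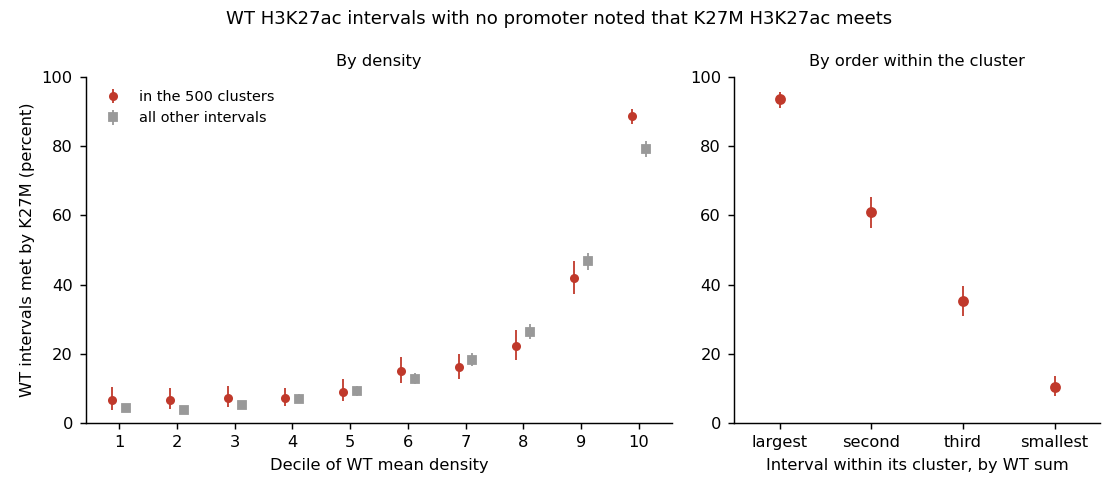
Percent of WT H3K27ac intervals without a noted promoter that a K27M H3K27ac interval meets (y axis, with exact binomial 95% intervals). The left panel goes by decile of WT mean density for intervals in the clusters (red) and all others (grey), and the right panel by the order of the interval within its cluster. The share climbs to 88.8% in clusters at the top decile, and goes from 93.7% at the largest interval to 10.3% at the smallest.

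The clusters differed in share with their surroundings. Most members, 380 (76.0%, background 65.0%), overlapped a gene. At least 90% of the span lay inside 1 gene in 310 members, a count without a background here. Clusters overlapping a gene had a median share of 28.3% (25.8 to 30.8%) and the 120 without a gene 36.8% (31.7 to 42.4%), and their WT mean densities were 41.8 and 48.6. A CpG island was noted in 77 clusters (15.4%, background 6.63%). These had a median share of 43.4% (33.5 to 48.6%) and those without an island 28.3% (25.1 to 31.7%). Clusters with more than the median number of intervals had 21.3% (18.5 to 25.8%) and the others 37.9% (34.3 to 42.8%). The WT density differed along with each of these divisions, and its part was not tested.

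As a measure of what CpG islands and promoters mean in these lists, K27M met 80.3% of WT H3K27ac intervals with a promoter and a CpG island noted, and 26.0% of those with a promoter but no island. The intervals in the clusters, at 31.1%, lay near the promoters without islands. Their median WT densities were 38.1, 22.7 and 25.7 tags per bin in the same order.

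Members were spread unevenly over the chromosomes. Chromosomes 2 and 11 held 47 each and chromosome 15 held 45, which was 10% of the clusters on chromosome 15, against 5.72% of all clusters. The X chromosome held 1. The median density of all H3K27ac intervals on chromosome 15 was 42.7 in K27M and 29.7 in WT, above the other autosomes in both libraries, which had 36.0 to 38.2 in K27M and 25 to 27 in WT. The share of the chromosome 15 members was 33.6% (26.1 to 46.9%) and that of the rest 29.4% (27 to 33.3%). The copy number of chromosome 15 was not tested, and inputs were not used here.

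H3K4me3 and H3K27me3 were not used to choose the clusters. H3K4me3, a mark of promoters, was called in 295 clusters in K27M (59.0%, 54.5 to 63.3%, background 24.2%) and in 413 in WT (82.6%, 79.0 to 85.8%, background 31.7%). Both genotypes had it in 293 clusters (58.6%, background 22.9%) and WT alone in 120 (24.0%, background 8.8%). K27M alone had it in 2 clusters (0.4%, background 1.29%), at Sbno2 (716 bp) and Zfyve28 (193 bp). Although no promoter was noted at the H3K27ac intervals, most of these clusters thus held some H3K4me3 by an overlap of 1 bp or more, as intervals with a median length of 520 bp in WT. With at least 10% of the span covered, the counts were 26.2% of clusters in K27M and 38.8% in WT.

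The H3K4me3 length in the clusters was 669 kb in K27M and 978 kb in WT (68.4%), while the summed H3K4me3 density was 1460763 in K27M and 1498142 in WT (97.5%). In the clusters outside the 500, the length was 82.5% and the sum 116% of WT, and over the whole lists 103% and 133%. The K27M length was at most 50% of WT in 202 of 413 clusters (48.9%, 44.0 to 53.8%, background 35.7% of clusters with WT H3K4me3). The called H3K4me3 length was therefore lower in K27M in the members, at nearly equal summed density, and relative to the whole lists both were lower.

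K27M H3K4me3 was present at nearly all promoter and island intervals of the clusters and at fewer than 50% of the remaining ones. Inside the clusters, K27M H3K4me3 met all 33 WT H3K4me3 intervals with a promoter noted and 94 of 101 with a CpG island but no promoter (93.1%, 86.2 to 97.2%). It met 412 of 915 with neither (45.0%, 41.8 to 48.3%), against 61.6% (60.1 to 63.1%) of 4086 such intervals elsewhere and 85.8% over all WT H3K4me3 intervals. The WT density of the intervals with neither note had a median of 22.4 in the clusters and 22 elsewhere, and their median length was 463 bp and 383 bp. When the intervals with neither note were divided into 4 classes of equal size by WT density, a division chosen after the data were seen, the share met was lower in the clusters in each class. It was 15.6% (10.8 to 21.5%) in the clusters and 31.5% (28.8 to 34.4%) elsewhere in the least dense class, and 87.1% (82.1 to 91.1%) and 95.2% (93.7 to 96.4%) in the densest. These intervals cover counting error within 1 library per genotype, and no test between genotypes was possible.

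Where both genotypes had H3K4me3, K27M was usually denser. At the 94 island intervals the median H3K4me3 density was 75.8 in K27M and 56.7 in WT, higher in K27M at 89. At the 412 intervals with neither note it was 30.6 in K27M and 28.3 in WT, higher in K27M at 287 (69.7%). Elsewhere K27M H3K4me3 was denser at 91.8% of the WT intervals it met, so a higher density was general to the H3K4me3 list.

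H3K4me3 followed the H3K27ac share in part. In the 208 clusters with a K27M H3K27ac share of at most 25%, the H3K4me3 length was 210 kb in K27M and 350 kb in WT (60.2%). It was 67.5% in the 188 clusters with a share above 25% and up to 50%, and 84.9% in the 104 clusters above 50%. Per cluster, the H3K4me3 and H3K27ac length shares had a Spearman correlation of 0.17 over 413 clusters, which share their libraries and spans. Clusters with CpG islands and little K27M H3K27ac differed in this. At Ahdc1, with 4 islands noted and an H3K27ac share of 12.5%, H3K4me3 covered 12796 bp in K27M and 12567 bp in WT. At Gm3764 and Rhbg, with 1 island noted and an H3K27ac share of 4.76%, it covered 1677 bp in K27M and 9994 bp in WT.

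H3K27me3, the mark of Polycomb repressive complex 2, was called in few clusters of either genotype, whether members or not. Among the members it was present in 3 clusters in K27M (0.6%, 0.124 to 1.74%, background 0.962%) and in 13 in WT (2.6%, 1.39 to 4.41%, background 3.5%), over 29.4 kb in K27M and 104 kb in WT. Both shares lay near their backgrounds. The WT share depended on the joining gap, at 0.6% with 5000 bp and 6.0% with 20000 bp. The 3 clusters with H3K27me3 in K27M also had it in WT, at Socs3 (19199 bp in K27M, 24398 bp in WT), Ttc7b (5399 bp in K27M, 6599 bp in WT) and Bahcc1 (4799 bp in K27M, 5199 bp in WT). Bahcc1 was thus both without K27M H3K27ac and with K27M H3K27me3. H3K27me3 in K27M alone was found in 0 of 500 clusters (exact binomial upper bound 0.735%, background 0.16%), a share that lies near the background. The whole K27M H3K27me3 list covered 18.2% of the WT length.

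**Figure D5:**
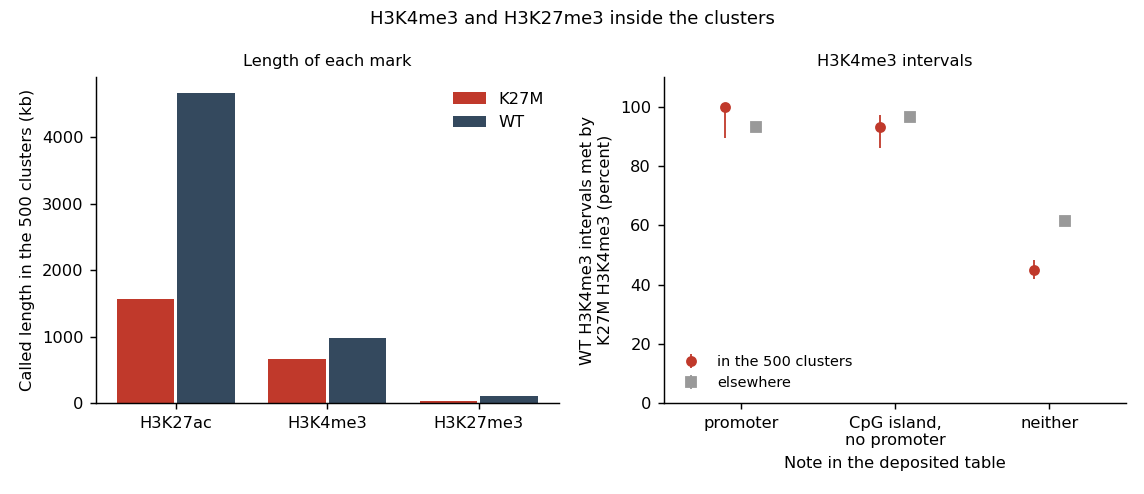
Left, called length of each mark in the 500 clusters in kb (y axis), K27M in red and WT in dark. Right, percent of WT H3K4me3 intervals that K27M H3K4me3 meets (y axis, exact binomial 95% intervals) by the note in the deposited table, in the clusters (red) and elsewhere (grey). The intervals with neither note stand at 45.0% in the clusters and 61.6% elsewhere.

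MicroRNA genes near the clusters were also looked up. Of RefSeq miRNA genes, 8 lay in a cluster and 28 within 10000 bp, at 19 clusters. The 4 groups with well-studied functions shown here were chosen after their values were seen, and appear as mature sequences with the seed, bases 2 to 8, in capitals.
miR-9-5p: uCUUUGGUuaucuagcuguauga
miR-29a-3p: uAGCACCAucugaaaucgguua
miR-29b-3p: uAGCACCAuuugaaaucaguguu
miR-23a-3p: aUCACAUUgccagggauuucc
miR-27a-3p: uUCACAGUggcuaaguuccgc
miR-24-3p: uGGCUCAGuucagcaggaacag
let-7a-5p: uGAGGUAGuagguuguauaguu
let-7d-5p: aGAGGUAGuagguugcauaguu
let-7f-5p: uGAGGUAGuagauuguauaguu

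Mir9-1, one of the mouse genes that give the neural microRNA miR-9, lies 2421 bp from the cluster of Gm3764 and Rhbg, where the K27M sum was 4.76% of WT. Mir9-3hg, the host transcript named for another of these genes, held the cluster of rank 76, with 2494 in K27M and 17968 in WT (13.9%). Mir29a and Mir29b-1, whose 3p products share the seed AGCACCA, lie 7945 bp and 7599 bp from the cluster of rank 21 in Lncpint, with 7977 in K27M and 30556 in WT (26.1%). The let-7 genes Mirlet7a-1, Mirlet7f-1 and Mirlet7d, which share the seed GAGGUAG and promote differentiation, lie within 10000 bp of the cluster of rank 318, with 4349 in K27M and 8676 in WT (50.1%). Mir23a, Mir27a and Mir24-2 lie within 10000 bp of the cluster of rank 278, with 7206 in K27M and 9403 in WT (76.6%). The cluster beside Mir9-1 thus had the lowest share of those named here and the cluster beside Mir23a the highest. No miRNA level was measured here.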

How the data were processed

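The authors deposited a separate interval list for every library. BWA, SICER and mm10 are named per the submitters' processing notes, with versions, roles, thresholds and any use of the inputs not given in the sources used here. Per the file headers an interval carries its mean and its highest signal, deposited as tag density over bins of about 32 nt. Multiplying the mean by the bin number gave whole numbers (tolerance 0.05) in 98.7% to 100% of intervals per library. The total depth is unknown, and coordinates and promoter and CpG island notes are those of the files.

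Groups came from the sample titles, with 2 genotypes, 3 marks and 1 library for each, so no test was made. The members, gene lists and thresholds were chosen with earlier results of these data known. An interval counted as inside a cluster, or as met, from an overlap of 1 bp, and sums were clipped at the cluster's edges. Medians carry order-statistic intervals and shares exact binomial intervals, both at 95%. Genes and start windows came from RefSeq tables of GRCm38.p6, the assembly of mm10. Promoters were noted at 88.5% of intervals within 2500 bp of a RefSeq start and at 61.0% of those 2500 to 7500 bp upstream, so the note reaches past the start. Named genes were those of the 20 strongest and 10 longest clusters, the 10 highest and 10 lowest shares, list members in a cluster, and the 3 clusters either side of rank 500. Python 3.11.15, pandas 2.3.3, numpy 2.4.6, scipy 1.17.1 and matplotlib 3.10.9 were used, and the joining, overlap and interval functions were tested on simulated data.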

Additional observations from a re-analysis of the deposited data

How the results depend on the processing

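Of 88 alternative values, 48 lay within the interval of the reported value and 40 outside it. With 1 library per group no library could be left out. No paired analysis was possible because each genotype has 1 library per mark. Windows of 500 bp for motifs were not run. A gap of 5000 bp gave a length share of 38.0%, 36.2% of intervals met, H3K27me3 in 0.6% of clusters in WT, and H3K4me3 in 53.2% in K27M and 78.2% in WT. A gap of 20000 bp gave 29.3% of intervals met, H3K27me3 in 6.0% in WT and H3K4me3 in 64.0% in K27M. With 250 clusters, 99.6% had K27M H3K27ac, and H3K4me3 was in 64.8% in K27M and 89.2% in WT. With 1000 clusters, 93.8% had K27M H3K27ac, the length share was 30.3%, and H3K4me3 was in 51.4% in K27M and 72.7% in WT. Of all genes, 2.85% overlapped 1 of the 1000 clusters. For the 500 clusters the gene share was 1.64%, and 2.16% with a flank of 10000 bp. Ranking by WT length gave 95.2% with K27M H3K27ac, a length share of 27.4%, a sum share of 25.6%, 84.2% at 50% or less and 28.6% of intervals met. A density floor of 25.5 in both lists gave a length share of 39.3%, 74.0% at 50% or less and 50.6% of intervals met. Asking for cover of 10% of the span gave 69.0% with K27M H3K27ac, and H3K4me3 in 26.2% in K27M and 38.8% in WT. Asking for cover of 50% of the interval gave 15.0% met. Equal 5th percentiles gave a sum share of 19.8% and 97.6% at 50% or less, equal sums 64.4% and 38.2%, and highest in place of mean density 21.6% and 93.6%. Added after seeing the data were 3 choices. Choosing clusters from all WT intervals, promoters included, gave 100% with K27M H3K27ac, a length share of 40.1%, a sum share of 39.7% and 69.8% at 50% or less. Without clusters found to hold a RefSeq start, H3K4me3 was in 53.3% in K27M, with all clusters on chromosome 18 kept because starts there were not looked up. Leaving out chromosome 15 moved neither value recomputed outside its interval. In each alternative the K27M median share stayed below 100%, but each still chose the clusters by WT H3K27ac, which favours such a share. Nothing is therefore read from this, and the causes of the moves were not tested.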

Other observations

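Several genes held more than 1 cluster. In all, 32 genes overlapped at least 2 members, among them Celf4, an RNA-binding protein of neurons, Ctnnd2, the neural catenin delta-catenin, Pvt1, a long noncoding RNA next to Myc, and Trio. Of the genes in clusters 373 were protein-coding, 39 were long noncoding RNAs and 8 were miRNAs. Of the 120 clusters without a gene, 31 lay within 10000 bp of 1, the median distance was 23226 bp and the farthest was 423981 bp.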
